A study of Mus musculus with 3 samples.

Results

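Cyclins, cyclin-dependent kinases (CDKs) and their regulators were examined in mouse four-cell embryos. The set was chosen by gene symbol: the cyclins of families A, B, D, E, F, G, I, J, K and L, the kinases Cdk1 to Cdk6, the CDK inhibitors, the Cdc25 phosphatases, the kinases Wee1 and Pkmyt1, the anaphase-promoting complex with its activators, and the Rb and E2F families. It held 62 of the 27670 genes on the array, with 122 of 41174 probes. The rule uses gene symbols and no measured value. HP embryos came from oocytes held under a hydrostatic pressure (HP) of 20 MPa for 60 min at 37 °C, and control embryos from oocytes handled alike without the pressure. Both kinds of oocyte were then fertilised and cultured to the four-cell stage. The sample labels give the fertilisation as sperm injection (ICSI), and the series title gives it as in vitro. The mouse strain is not given in the labels used here.

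The 3 pools of HP embryos held 44 (replicate 1), 30 (replicate 2) and 37 (replicate 3), and those of control embryos 36, 33 and 24. RNA of an HP pool and of the control pool with the same number was hybridised together on a two-colour Agilent array, 3 arrays in all on 1 slide. HP RNA was labelled with Cy5 and control RNA with Cy3 on every array, so dye and treatment cannot be told apart. Because embryos were pooled, fewer embryos or cells with a transcript and less of it per cell cannot be told apart. All ratios below are log2 of HP over control after loess normalization, as mean ± moderated standard error over n = 3 arrays. Levels are normalized log2 signals of single probes, which cannot be set against those of another probe.

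A dividing cell is driven by CDKs bound to cyclins. Cyclin D with CDK4 or CDK6, followed by cyclin E with CDK2, inactivates the Rb proteins and frees E2F transcription factors for entry into S phase. CDK1 with cyclins A and B then drives mitosis, held back by the kinases Wee1 and Pkmyt1 and released by Cdc25 phosphatases. The anaphase-promoting complex (APC/C), with its activators Cdc20 and Fzr1, marks cyclin B for destruction and so ends mitosis. Early mouse cleavage uses transcripts stored in the oocyte as well as those made after activation of the embryonic genome, which begins before the four-cell stage.

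The promoters of the mitotic members Ccnb1, Ccnb2 and Cdk1 are shown by sequence and were searched for letters known from cell cycle genes. The 250 bases upstream of the start are given 5′ to 3′ on the coding strand from the RefSeq table of build GRCm38.p6. Capitals mark matches to the cell cycle homology element TTTGAA (CHR), to CCAAT (read as ATTGG where it lies on the other strand), and to an E2F element spelled TTTGGCGC, TTTCGCGC or TTTCCCGC. Both strands were searched and no matches overlapped in these 3 promoters. Ccnb1 (cyclin B1) lies at chr13:100786487-100786736 on the minus strand, Ccnb2 (cyclin B2) at chr9:70421555-70421804 on the minus strand, and Cdk1 at chr10:69352913-69353162 on the minus strand.
Ccnb1: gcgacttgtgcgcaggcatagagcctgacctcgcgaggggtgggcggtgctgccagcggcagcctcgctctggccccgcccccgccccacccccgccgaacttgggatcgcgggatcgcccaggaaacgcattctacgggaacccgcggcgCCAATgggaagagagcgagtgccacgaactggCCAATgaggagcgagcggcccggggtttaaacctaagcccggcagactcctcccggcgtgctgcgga
Ccnb2: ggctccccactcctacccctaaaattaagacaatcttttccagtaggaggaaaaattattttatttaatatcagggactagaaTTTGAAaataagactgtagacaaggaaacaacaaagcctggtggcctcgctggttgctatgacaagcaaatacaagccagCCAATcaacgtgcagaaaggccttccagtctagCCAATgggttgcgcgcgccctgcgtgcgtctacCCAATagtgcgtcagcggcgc
Cdk1: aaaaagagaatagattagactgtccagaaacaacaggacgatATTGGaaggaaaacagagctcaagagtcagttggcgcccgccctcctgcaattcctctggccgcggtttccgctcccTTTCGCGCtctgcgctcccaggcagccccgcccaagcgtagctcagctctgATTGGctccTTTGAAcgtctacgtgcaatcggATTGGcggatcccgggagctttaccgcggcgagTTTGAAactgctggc
The Ccnb1 window held 2 CCAAT boxes and neither of the other elements. The Ccnb2 window held 3 CCAAT boxes and 1 CHR. The Cdk1 window held 3 CCAAT boxes, 2 CHR and 1 E2F element. Of 32851 promoter windows of this length in the table, 33.8% held CCAAT, 16% CHR and 1.53% an E2F element, against 47.4%, 21.1% and 12.3% of the 57 windows of the 49 members with an entry. A match is a run of letters and shows no binding.

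For Ccnb1 and Cdk1 the array's own 60-base probes are shown as well, since the values of both genes rest on them. They are given as in the array design, with its mm7 coordinates: chr13:97885282-97885341 for Ccnb1 and chr10:68946079-68948488 for Cdk1, both on the minus strand. The ends of the Cdk1 probe lie further apart than its 60 bases, so it spans an intron. The design gives no exon or untranslated-region call for any probe.
Ccnb1: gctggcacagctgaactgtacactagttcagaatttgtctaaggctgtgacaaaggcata
Cdk1: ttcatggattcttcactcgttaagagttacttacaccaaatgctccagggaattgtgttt

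The first question was which cell cycle transcripts could be measured. A gene was tested when a probe was well above background in the same channel on at least 2 arrays, which 32 of the 62 members met (51.6%), against 26.2% of all genes on the array. The other 30 members were not measured here, and 79 of the 122 member probes were well above background in no pool. Detection differed between the roles. The APC/C was the best covered, with 11 of 14 members tested. At the G2 to M step 6 of 11 were tested, among G1 genes 6 of 16, at the G1 to S step 2 of 5, among CDK inhibitors 2 of 7 and among the other cyclins 5 of 9.

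No probe of the D cyclins (Ccnd1, Ccnd2 and Ccnd3) or of their kinases Cdk4 and Cdk6 was well above background in any HP or control pool. The same held for Cdk2, the partner of cyclin E, for the second E cyclin Ccne2, for the inhibitors Cdkn1a and Cdkn1b, for Wee1, Cdc25c and E2f1, and for the germline cyclin Ccna1. Wee2, an oocyte-specific kinase acting on CDK1 that the array lists under an older name outside the set, was also below background in every pool. Fzr1, the APC/C activator of late mitosis and G1, was above background in 0 of 3 HP pools and 1 of 3 control pools. No ratio is given for any of these genes.

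No cell cycle gene differed past adjustment over all genes. Of 7254 genes tested, 0 (0%) had a limma adjusted p under 0.05, the lowest being 0.178, and so 0 of the 32 members did. At an unadjusted p under 0.05 there were 9 of 32 members (28.1%), against 18.5% of all tested genes. Of these, 4 were higher in HP (12.5%, against 7.35% of all) and 5 lower (15.6%, against 11.1%). The counts depended on the arrays, as did the shares over all genes. Without replicate 3 there were 1 higher and 2 lower, against 4.22% and 6.16% of all tested genes. Without replicate 2 there were 3 and 3, against 3.96% and 5.85%, and without replicate 1 there were 5 and 7, against 10.9% and 13.7%. Under an exact two-sided sign-flip test over 3 arrays no single gene can have a p below 0.25. All p-values reflect no more than how these 3 pairs of pools varied, and the number of arrays limits the precision.

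With loess the members as a list lay close to the rest of the array. Their median log2 ratio was −0.07, against −0.01 over all tested genes, with 12 members above 0, beside 48.4% of all tested genes, and 20 below (62.5%, against 51.6% of all). On arrays 1, 2 and 3 the medians were −0.01, −0.03 and −0.03, against −0.02, −0.01 and 0.01. Higher on every array were 8 members (25%, against 23.5% of all), and 8 were lower on every array (25%, against 25%). The pools of the 2 treatments did not overlap for 11 members: all HP pools were above all control pools for 6 (18.8%, against 13.3% of all) and below them for 5 (15.6%, against 13.2%). No member was 2-fold or more higher or lower on all 3 arrays, which 0.152% and 0.207% of all tested genes were.

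**Figure D1:**
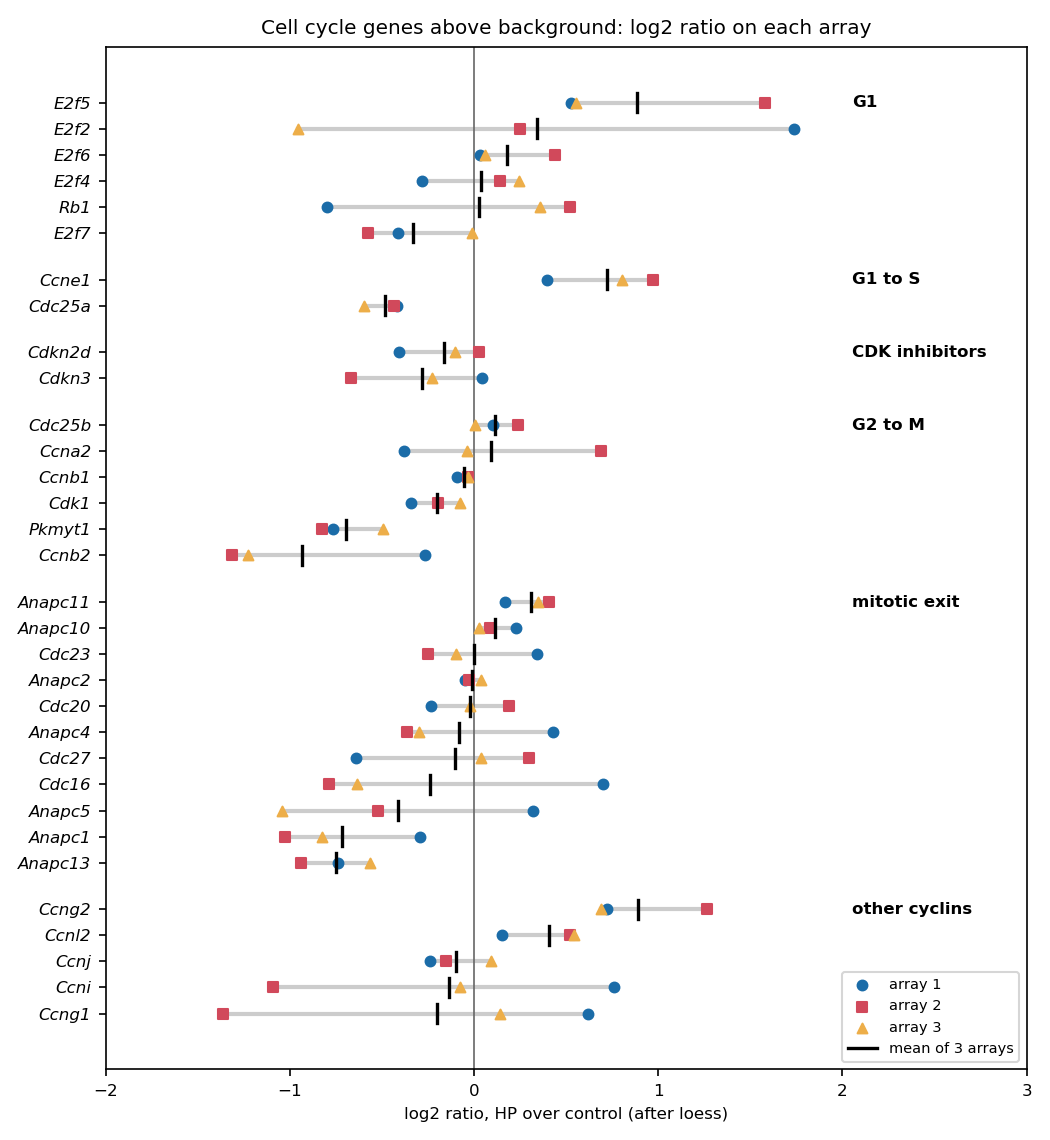
Log2 ratio of HP over control on the x axis for the 32 tested members, by role, with a point for each array, a grey bar for the range and a black tick for the mean. Ccng2, E2f5 and Ccne1 have the highest means and Ccnb2, Anapc13, Anapc1 and Pkmyt1 the lowest, each with 1 sign on all 3 arrays, and for 9 members array 1 lies on the other side of 0 from arrays 2 and 3.

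Replicate 1 stood apart from the other two in these values. Across the 32 members the ratios of arrays 2 and 3 had a correlation of 0.69, while those of arrays 1 and 2 had 0.14 and those of arrays 1 and 3 had 0.01. Over all 7254 tested genes the values were 0.65, 0.23 and 0.22. This is across genes, which are no independent replicates. HP pools 2 and 3 were also close in level, with a standard deviation of their difference of 0.231 over all tested genes, against 0.548 and 0.463 for the pairs that hold HP pool 1, and 0.465 to 0.522 among control pools. Array 1 opposed both others in sign for 9 of 32 members (28.1%, against 25.2% of all tested genes). With replicates 2 and 3 averaged as 1 replicate, the unadjusted p was under 0.05 for 2 members higher in HP (5.17% of all tested genes) and 3 lower (6.71% of all), and 0 passed adjustment. Ccne1, Ccnl2, Anapc1 and Ccnb2 were then no longer under 0.05.

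The normalization moved the whole list. Median centring, in place of loess, subtracted the median over all spots of each array, control spots aside. At most 23.2% of those spots were well above background in any channel. With this centring the median of all tested genes was −0.39 and that of the members −0.59, with 2 members above 0 and 30 below. At an unadjusted p under 0.05 it had 1 member higher and 17 lower, against 0.648% and 35.1% of all tested genes. That setting called 1047 of the 7254 tested genes at an adjusted p under 0.05, among them 8 of the 32 members, all lower in HP. The 8 were Ccnb2 at −1.82, Anapc1 at −1.62, Pkmyt1 at −1.35, Anapc13 at −1.34, Cdc20 at −1.20, Ccnb1 at −1.13, Cdc25a at −1.08 and Cdc27 at −0.80. Loess removes a trend of the ratio with intensity, and median centring leaves it in. Directions below are with loess, and each member's direction that turned under median centring is marked.

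**Figure D2:**
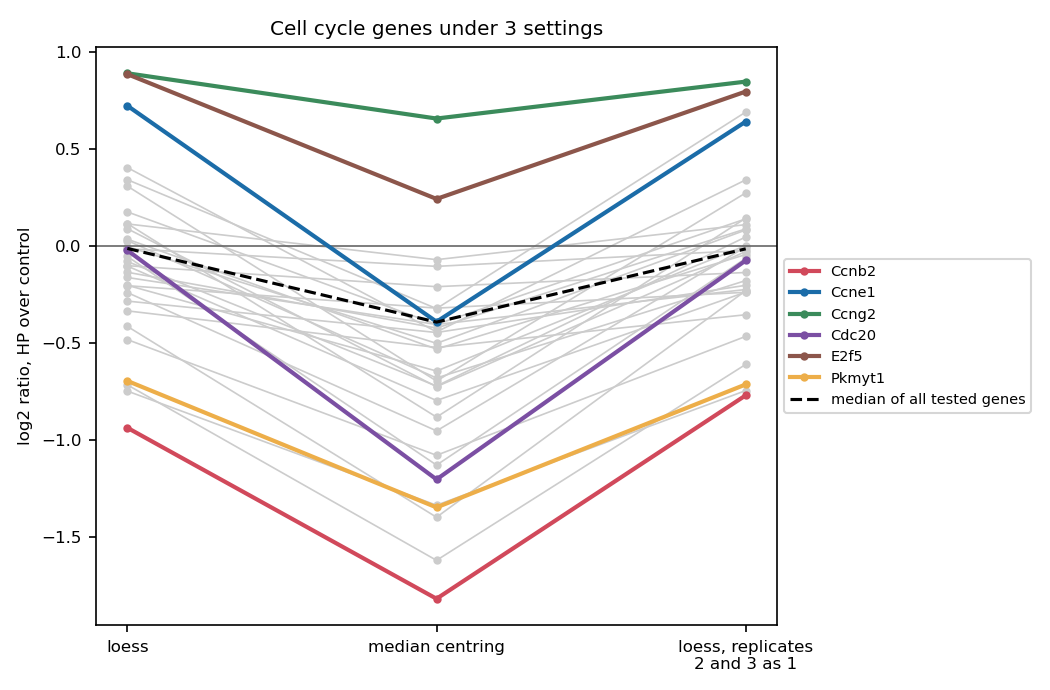
Log2 ratio of HP over control on the y axis for each tested member (grey lines, 6 named in colour) under loess, under median centring and under loess with replicates 2 and 3 averaged. With median centring the median of all tested genes (dashed) moved to −0.39, Ccng2 and E2f5 remained above 0, and Ccne1 moved to −0.39, on that median.

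Among the G1 genes, 5 of the 6 tested had a mean above 0, beside 48.4% of all tested genes, and 1 below. Higher at an unadjusted p under 0.05 was 1 (E2f5), beside 7.35% of all tested genes. E2f5 encodes an E2F that acts mainly as a repressor with the Rb-related proteins. Its probe (mm7, chr3:14608608-14608670, plus strand) gave log2 signals of 7.84, 8.60 and 8.26 in HP pools 1, 2 and 3, against 7.31, 7.02 and 7.71 in control pools 1, 2 and 3. Every HP pool was above every control pool, and HP pool 2 was the highest. The log2 ratio was 0.89 ± 0.26, or 1.85-fold higher in HP (limma adjusted p = 0.227), and 0.24 with median centring. Without replicate 2 it was 0.54. The other probes of E2f5 were well above background in no pool.

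The other E2F genes had no such order. E2f6, a repressor that works without Rb proteins, was at 0.03, 0.44 and 0.06 on arrays 1, 2 and 3, a mean of 0.18 that became −0.40 with median centring. E2f2, an activator of S phase genes, had log2 signals of 9.23, 7.53 and 7.94 in the HP pools, against 7.49, 7.29 and 8.90 in the control pools. HP pool 1 and control pool 3 stood above the rest, so its mean of 0.34 ± 0.56, which turned to −0.32 with median centring, covers ratios of both signs. E2f4, a repressor in resting cells, was at 0.04 ± 0.15, or −0.53 with median centring. E2f7, an atypical E2F that represses without a dimerisation partner, was at −0.33 ± 0.16, and its probe was above background in 1 HP pool and 2 control pools.

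Rb1, the retinoblastoma protein that holds E2F inactive, had log2 signals of 7.09, 8.70 and 8.62 in the HP pools, against 7.89, 8.17 and 8.26 in the control pools. HP pool 1 was the lowest of the 6 and HP pools 2 and 3 the highest. The mean of 0.03 ± 0.31 therefore joins a ratio of −0.80 on array 1 with 0.52 and 0.36 on arrays 2 and 3, and it was −0.68 with median centring.

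At the G1 to S step 2 members were tested, 1 higher and 1 lower in HP, both with an unadjusted p under 0.05. Of all tested genes 7.35% were higher and 11.1% lower at that p. Ccne1 encodes cyclin E1, which with CDK2 starts DNA replication. Its probe (mm7, chr7:34990690-34990713, minus strand) gave 11.82, 12.63 and 12.53 in the HP pools, against 11.42, 11.66 and 11.73 in the control pools. The HP pools were all above the control pools, and HP pools 2 and 3 lay together above HP pool 1. The log2 ratio was 0.72 ± 0.16, or 1.65-fold higher in HP (limma adjusted p = 0.184), but −0.39 with median centring, which equals the median of all tested genes there. A second probe of Ccne1, listed at the same coordinates, was well above background in no pool.

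Cdc25a encodes the phosphatase that activates CDK2 and CDK1. Its probe (mm7, chr9:109589667-109589726, plus strand) had signals of 7.29, 7.33 and 7.33 in HP pools, against 7.70, 7.77 and 7.93 in control pools. The HP pools were nearly identical, and all were below the controls. The log2 ratio was −0.48 ± 0.11, or 1.40-fold lower in HP (limma adjusted p = 0.190). A second tested probe gave −0.15, and the mean over both probes was −0.32.

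**Figure D3:**
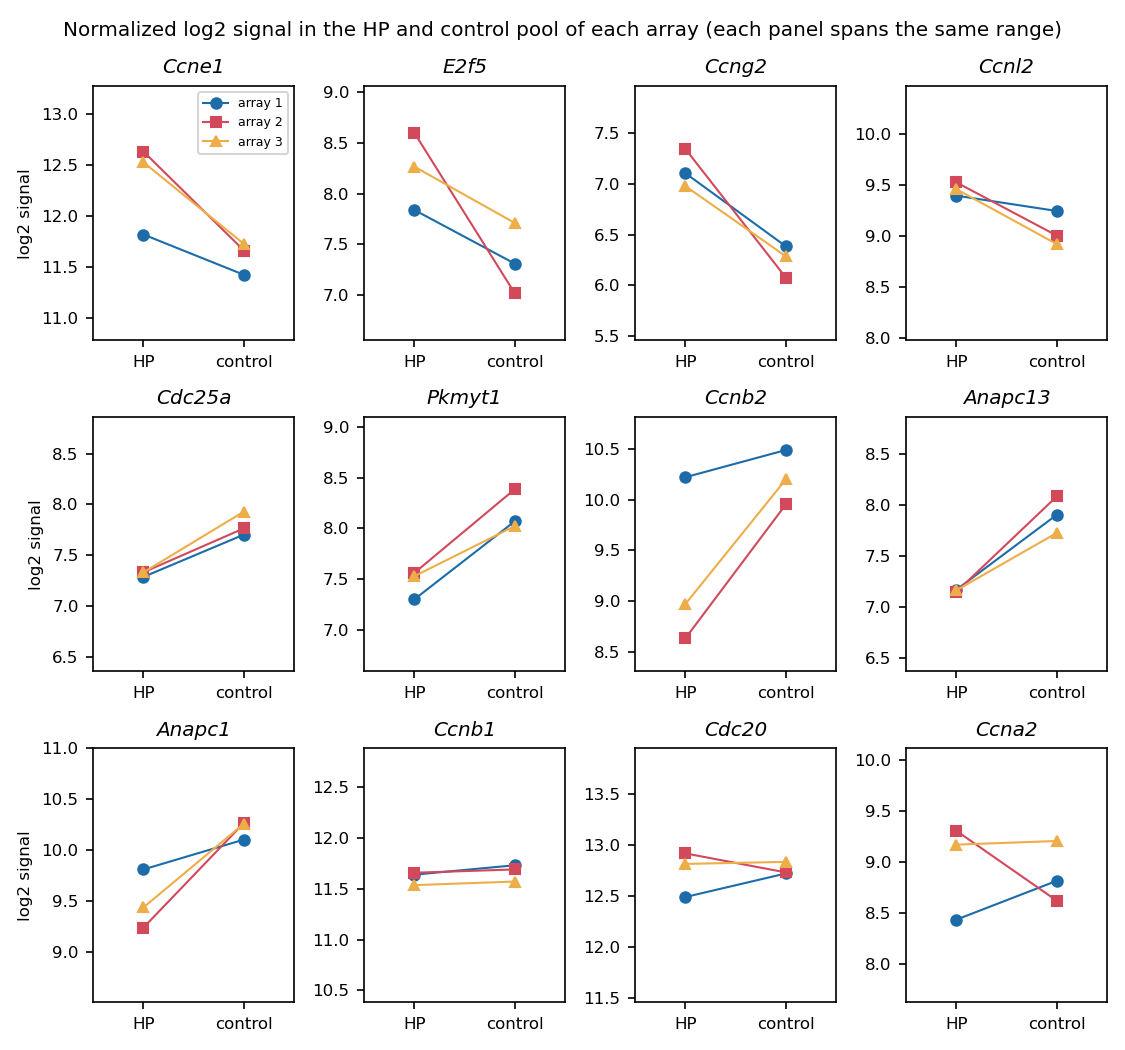
Normalized log2 signal on the y axis of 12 members in the HP pool (left) and control pool (right) of each array, joined by a line per array. All panels span the same range, and levels cannot be compared between panels. The HP pools lie above the control pools for Ccne1, E2f5, Ccng2 and Ccnl2 and below them for Cdc25a, Pkmyt1, Anapc13 and Anapc1, while for Ccnb2 HP pool 1 (10.22) lies among the control pools.

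Of the 7 CDK inhibitors 2 were tested, and both were near the detection limit. Cdkn2d, which binds CDK4 and CDK6, was above background in 2 HP pools and 3 control pools, with ratios of −0.41, 0.03 and −0.10. Cdkn3, a phosphatase that acts on CDK2, was above background in 0 of 3 HP pools and 2 of 3 control pools. Its measured signals were 6.25, 6.34 and 6.53 in the HP pools, against 6.21, 7.01 and 6.76 in the control pools, so the pools overlapped. Its log2 ratio was −0.28 ± 0.18 (limma adjusted p = 0.417), with 0.04 on array 1, −0.67 on array 2 and −0.23 on array 3.

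At the G2 to M step 4 of the 6 tested members were below 0, beside 51.6% of all tested genes, and 2 were above 0. Lower at an unadjusted p under 0.05 were 2 of the 6, beside 11.1% of all tested genes. Ccnb2, cyclin B2, had the lowest ratio of all 32 members. Its probe (mm7, chr9:70439814-70439873, minus strand) gave 10.22, 8.64 and 8.97 in the HP pools, against 10.49, 9.95 and 10.20 in the control pools. HP pools 2 and 3 were below every control pool, but HP pool 1 was above 2 of the 3 control pools. The log2 ratio was −0.94 ± 0.26, or 1.91-fold lower in HP (limma adjusted p = 0.214). It was −0.27 on array 1, −1.32 on array 2 and −1.23 on array 3. With replicates 2 and 3 averaged as 1 the mean was −0.77, with an unadjusted limma p of 0.118.

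Ccnb1, cyclin B1, had no such difference. The probe printed above gave 11.64, 11.66 and 11.53 in the HP pools, against 11.73, 11.69 and 11.57 in the control pools. All 6 pools were within a narrow range and the 2 treatments overlapped, with a log2 ratio of −0.05 ± 0.10 (limma adjusted p = 0.789). The other tested probes of Ccnb1 gave −0.25 and −0.09. With median centring it was −1.13, below the median of all genes there.

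Pkmyt1 is the membrane-bound kinase that keeps CDK1 inactive by phosphorylation. Its single probe (mm7, chr17:21916554-21916613, plus strand) read 7.30, 7.56 and 7.53 in the HP pools, against 8.07, 8.39 and 8.02 in the control pools. All HP pools were below all control pools, with similar ratios on the arrays of −0.77, −0.82 and −0.49. The mean was −0.69 ± 0.12, or 1.62-fold lower in HP (limma adjusted p = 0.178), and leaving out any one replicate kept it between −0.80 and −0.63.

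Cdk1, the mitotic kinase itself, listed on the array under its older symbol Cdc2a, was above background in 1 HP pool and 3 control pools. The spliced probe printed above read 6.29, 6.42 and 6.46 in the HP pools, against 6.63, 6.62 and 6.54 in the control pools. The HP pools were below the control pools by a small amount, with a log2 ratio of −0.20 ± 0.12 (limma adjusted p = 0.385). The size for a probe this dim depended on background handling, and the scanner's own processed ratio gave −1.49. A second probe of Cdk1 was well above background in no pool.

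Ccna2, cyclin A2, which acts in S phase and at entry into mitosis, read 8.43, 9.31 and 9.17 in the HP pools, against 8.81, 8.62 and 9.21 in the control pools. The pools overlapped, and the mean of 0.09 ± 0.24 turned to −0.72 with median centring. Cdc25b, a phosphatase that activates CDK1 and is needed in mouse for oocytes to resume meiosis, read 6.64, 6.75 and 6.61 in the HP pools, against 6.54, 6.52 and 6.60 in the control pools. All HP pools were above all control pools, on array 3 by 0.01. Its mean of 0.11 ± 0.11 (limma adjusted p = 0.584) became −0.07 with median centring.

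In the APC/C group 9 of the 11 tested members were below 0, beside 51.6% of all tested genes, and 2 were above 0. Lower at an unadjusted p under 0.05 were 2 of the 11, beside 11.1% of all tested genes. The group median was −0.08. For 5 of the 11, array 1 had the opposite sign to arrays 2 and 3, beside 25.2% of all tested genes. Anapc1 and Anapc13 were lower in HP on every array, and Anapc10 and Anapc11 higher, though both of these turned with median centring.

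Anapc13 encodes a small subunit that stabilises the complex. Its single probe (mm7, chr9:102325010-102325068, plus strand) read 7.17, 7.15 and 7.16 in the HP pools, against 7.90, 8.09 and 7.73 in the control pools. The HP pools differed little from each other and were all below the control pools. The log2 ratio was −0.75 ± 0.13, or 1.68-fold lower in HP (limma adjusted p = 0.178), the smallest unadjusted p of the 32 members at 0.00405.

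Anapc1 encodes the largest subunit and scaffold. Its brightest probe (mm7, chr2:128353614-128353673, minus strand) read 9.81, 9.24 and 9.44 in the HP pools, against 10.10, 10.27 and 10.26 in the control pools. HP pool 1 was the nearest to the controls, and none overlapped. This gave −0.72 ± 0.18, or 1.64-fold lower in HP (limma adjusted p = 0.200), but the other tested probes of the gene gave −0.00 and −0.14, and the mean over its probes was −0.29.

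Anapc11 is the RING subunit that recruits the ubiquitin-conjugating enzyme. The brighter of its tested probes read 10.85, 11.19 and 11.01 in the HP pools, against 10.68, 10.78 and 10.66 in the control pools, with no overlap. Its log2 ratio of 0.31 ± 0.11 (limma adjusted p = 0.273) was the highest of the group, but −0.01 by the second probe and −0.70 with median centring. Anapc10, a subunit that helps to bind substrates, was at 0.23, 0.09 and 0.03, a mean of 0.12 that became −0.88 with median centring.

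Cdc20, the activator that starts the destruction of cyclin B, read 12.49, 12.92 and 12.82 in the HP pools, against 12.72, 12.73 and 12.84 in the control pools. The pools overlapped, with HP pool 1 the lowest and HP pool 2 the highest. Its log2 ratio was −0.02 ± 0.13 (limma adjusted p = 0.936), and −1.20 with median centring. It turned to 0.08 without replicate 1.

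The other subunits showed ratios of both signs. Cdc16, one of the repeat-containing subunits of the arm that binds the activators, was at 0.70 on array 1 against −0.79 and −0.63 on arrays 2 and 3. Anapc5, a platform subunit, was at 0.32 against −0.52 and −1.04, and Anapc4, also of the platform, at 0.43 against −0.37 and −0.30. In all 3 of these genes array 1 was above 0 and the others below. Cdc27, which contacts the activators, went the other way on array 1, at −0.64 against 0.30 and 0.04. A dimmer tested probe of Cdc27 was at −0.90, −0.11 and 0.05, a mean of −0.32. Cdc23 averaged −0.00 ± 0.16, and the cullin-like Anapc2, above background in 2 HP pools and 2 control pools, averaged −0.01 ± 0.10. Anapc16, which the array lists under an older name outside the set, was at −0.35 ± 0.12 by its brighter probe and 0.12 by a dimmer one. Anapc15, also outside the set for its older name, was at 0.03 ± 0.10. Its tested probe was above background in 2 HP pools and 1 control pool.

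**Figure D4:**
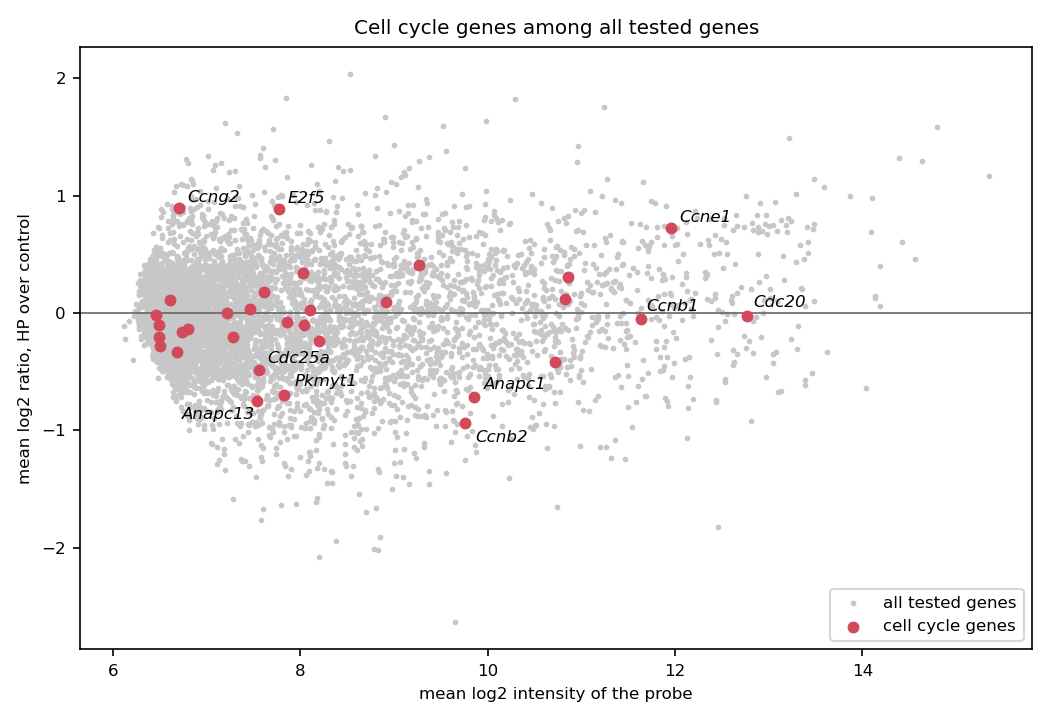
Mean log2 ratio of HP over control on the y axis against the mean log2 intensity of the probe on the x axis, for the tested genes reported here (grey) and the 32 tested members (red, 10 named). The members lie within the cloud of all genes, from −0.94 for Ccnb2 to 0.89 for Ccng2.

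Of the cyclins with roles apart from the main cycle, 2 of the 5 tested were above 0, beside 48.4% of all tested genes, and 3 below. Both had an unadjusted p under 0.05, at which 7.35% of all tested genes were higher. Ccng2 encodes cyclin G2, an atypical cyclin linked to cell cycle arrest. Its single probe (mm7, chr5:93263099-93263158, plus strand) was above background in 3 of 3 HP pools and 0 of 3 control pools. It read 7.10, 7.34 and 6.98 in the HP pools, against 6.39, 6.08 and 6.29 in the control pools. The HP pools were all higher. The gene passed the filter through its HP pools alone, and was not tested where both channels were required on every array. The control pools were not well above background, so the size of the difference is uncertain. On arrays 1, 2 and 3 the log2 ratios were 0.72, 1.26 and 0.69. The ratio of measured signals with loess averaged 1.85-fold higher in HP (limma adjusted p = 0.178). Its size depended on the setting: the log2 ratio was 0.89 ± 0.17 with loess, 0.66 with median centring, 0.70 without replicate 2, 1.71 with no offset added to the signals, and 3.94 by the scanner's processed ratio.

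Ccnl2, cyclin L2, which works with CDK11 in RNA splicing, read 9.40, 9.53 and 9.46 in the HP pools, against 9.24, 9.0 and 8.92 in the control pools. All HP pools were above all control pools, and the gap was smallest on array 1. The log2 ratio was 0.40 ± 0.14, or 1.32-fold higher in HP (limma adjusted p = 0.253), and −0.44 with median centring. With replicates 2 and 3 averaged as 1 its unadjusted limma p was 0.148. The other probes of Ccnl2 were well above background in no pool.

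Ccng1, a target of p53, was at 0.62, −1.36 and 0.14, with a mean of −0.20 ± 0.43. Ccni, an atypical cyclin, was at 0.76, −1.09 and −0.07, with a mean of −0.13 ± 0.39. Ccnj, another atypical cyclin, averaged −0.10 ± 0.12. For each of them the HP and control pools overlapped.

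Other cell cycle genes outside the set, from a list of 49, gave 36 tested genes, of which 17 were above 0 and 19 below with loess, and 3 above and 33 below with median centring. None passed adjustment (0 of 36 by limma), and the median was −0.01. At an unadjusted p under 0.05 there were 3 higher and 3 lower of the 36, against 7.35% and 11.1% of all tested genes. Higher were Foxm1 (0.79 ± 0.19), a transcription factor of G2 and mitosis genes, Cul1 (0.48 ± 0.14), the scaffold of the SCF ubiquitin ligase, and Cks2 (0.44 ± 0.11), a small CDK-binding protein, which with median centring were at 0.056, 0.20 and −0.79, so that Cks2 turned. Lower were Cdk12 (−0.98 ± 0.32), which phosphorylates RNA polymerase II, Mastl (−0.93 ± 0.12), the kinase that shuts off the phosphatase opposing CDK1, and the SCF subunit Skp1 (−0.49 ± 0.12). Mastl was at −0.88, −1.11 and −0.79 on the 3 arrays and had the smallest unadjusted p of the list, 0.00152 (limma adjusted p = 0.178).

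Markers of the cells in the pools were checked. Of 13 oocyte and early embryo markers on the array 7 were tested. Nlrp5, Ooep, Zar1, Padi6 and Zp2 were above background in no pool, and Pou5f1 in 1 control pool alone. With loess 6 of the 7 were above 0: Oog1 (1.49), Gdf9 (0.97), Dppa3 (0.26), Bmp15 (0.23), Tcl1 (0.08) and Zp3 (0.02). Khdc3 was below 0 at −1.30, with −0.80, −1.85 and −1.24 on arrays 1, 2 and 3. With median centring 2 were above 0 (Oog1 at 0.27 and Gdf9 at 0.12) and 5 below, Khdc3 at −2.06. The summed signal of the 7 on the log2 scale, with loess, was 14.2 to 15.1 in HP pools, against 13.7 to 14.0 in control pools. Such a sum follows its brightest genes and joins Oog1 and Khdc3, which had opposite signs. Its part in the results was not tested. Of 14 cumulus and granulosa cell markers 1 was tested, Amhr2, which was well above background in every HP and control pool, while 11, among them Has2, Fshr, Lhcgr and Star, were above background in no pool. The signal of Amhr2 was 9.85 to 9.999 in HP pools, against 9.65 to 9.93 in control pools. Of 10 sperm markers 2 were tested (Prm1 and Odf2) and 7 had no signal. The sums of the 2 tested were 7.75 to 7.92 in HP pools, against 7.63 to 8.02 in control pools. Between 17.5% and 19.9% of spots were well above background in HP channels, against 18.5% to 23.2% in control channels, and no spot was saturated.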

How the data were processed

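Per the labels, 240 pg of total RNA from each pool was amplified in successive rounds (TrueLabeling-PicoAMP) and coupled to CyDyes. Per the submitters' processing notes and the file headers, the scanner software was Agilent Feature Extraction 9.5.1.1. Mean and local background signals were deposited as raw intensity values. The deposited log ratio is log10 of Cy5 over Cy3, already background-subtracted and dye-normalized, and the series table from the authors matched it.

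Mean signals were corrected with normexp (offset 50) and loess within arrays, control spots at weight 0, in limma 3.58.1 (R 4.3.3, statmod 1.5.0). For the signals of single pools, mean intensities were also quantile-normalized between arrays (Aquantile), which left the ratios unchanged. The overlap of pools and the differences between pools rest on these signals. The offset draws the ratios of dim probes towards 0. Spots that the scanner software called outliers were left out. All log2 values were computed here from the deposited intensities. A gene was represented by its brightest tested probe. Of member probes, 92 were named by RefSeq accession and 30 by symbol. An intercept was fitted with empirical Bayes moderation over 7254 genes, with Benjamini-Hochberg adjustment at 0.05. The steps were tested on simulated data.

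Named are up to 8 members per direction with the smallest p among those with the same sign throughout and a brighter channel above background on every array, the member of smallest p in each role, and a list of core genes. All other tested members are described too. The rule for members uses symbols alone, but it and the lists were chosen with earlier results of these data known. One gene of the family is not reported here. Of 38 members with more than 1 probe, 5 had more than 1 tested probe, 4 of them with 1 sign. A further 17 tested members had 1 tested probe beside 1 or more too dim to be tested. The other settings tried are named with their effects in the closing section. Each array already pairs its pools, and the labels do not say what a replicate number shares.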

Additional observations from a re-analysis of the deposited data

How the results depend on the processing

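Under every setting run other than median centring, 0 members passed adjustment. The fit of separate channels with no replicate block, which drops the pairing of pools on an array, also gave 0 past adjustment and a median of −0.07. It had 5 higher and 4 lower members of unadjusted p under 0.05, against 7.94% and 10.7% of all tested genes. Median centring gave 8 of 32 members past adjustment, beside 1047 of 7254 tested genes. It gave 1 higher and 17 lower (0.648% and 35.1% of all tested genes) and a median of −0.59, against −0.39 over all. It turned Ccne1 to −0.39, Ccnl2 to −0.44, Anapc11 to −0.70, E2f6 to −0.40, Anapc10 to −0.88, Cdc25b to −0.070, Ccna2 to −0.72 and Rb1 to −0.68. E2f2 and E2f4 also turned below 0, with their values given among the G1 genes. Beside the 4 higher and 5 lower members, the scanner's processed ratio and the series table gave 2 higher (7.73% of all), scale normalization 3 lower (8.41%), requiring both channels on every array 2 higher (9.37%), and replicates 2 and 3 averaged as 1 gave 2 higher and 3 lower (5.17% and 6.71%). The median of members was −0.10 by the scanner's ratio and the series table, against 0.048 over all tested genes. With an offset of 0 it was −0.078, against −0.019 over all. Without the filter on dim probes it was −0.00056, against −0.0015 (31 of 62 members above 0 and 31 below). With both channels required it was −0.012, against 0.012, and with array weights −0.052, against −0.0053. The mean over probes gave −0.090, against −0.015. With a trend on probe GC share removed it was −0.027, against 0.0091. With replicates 2 and 3 as 1 it was −0.036, against −0.014. Leaving out 1 replicate gave 1 to 5 higher, 2 to 7 lower, a median of −0.066 to −0.036 and 0 past adjustment. Genes with means near 0 changed sign. Rb1 was −0.062 with an offset of 0 and −0.18 with replicates 2 and 3 as 1, and ran from −0.22 to 0.44 with 1 replicate left out. Ccna2 was −0.028 with replicates 2 and 3 as 1, and ran from −0.21 to 0.33 with 1 replicate left out. Cdc20 was 0.017 with the GC trend removed, and ran from −0.13 to 0.084 with 1 replicate left out. The cause was not tested. Without background subtraction, and with trended and robust moderation, every count was within 1.5 times. Dim probes limit sizes: the scanner's ratio gave 3.94 for Ccng2, −2.16 for Cdkn3, −1.49 for Cdk1 and −1.30 for E2f7.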
